A study of Mus musculus with 2 samples.

Results

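Neuron-enriched microRNA (miRNA) genes that are each known from a single place in the mouse genome were examined in small RNA libraries of cerebral cortex. The 9 genes are Mir598, Mir383, Mir874, Mir708, Mir488, Mir873a, Mir384, Mir551b and Mir592, taken by name from a fixed list out of 2202 counted miRNA genes. All 9 were found in the annotation. The samples are 2 libraries of 1 group, wild-type control cortex tissue of the B6NCrl mouse strain, described as female, with no allele, agent or treatment given and with age not collected. Tissue was used whole, so that fewer neurons and less RNA per neuron cannot be told apart, and enrichment in neurons is part of the list's name and cannot be checked here. They are numbered as biological replicates 1 and 2, cite 1 donor record, and are not stated to come from separate animals, so the spread between them may be technical. With 1 group there is no condition to compare. The questions that can be asked are how abundant each gene is, how its level stands to the gene that hosts it, and how far the 2 libraries give the same value.

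A miRNA is cut from a hairpin in a longer transcript, first in the nucleus and then in the cytoplasm, and the mature strand of about the length of a short read guides the repression of messenger RNAs (mRNAs). Bases 2 to 8 of the mature strand, the seed, do most of the pairing. Many miRNA genes lie in introns of protein-coding genes on the same strand, and such a hairpin can be released from the host's own transcript. Neurons express many very long genes, among them those of adhesion molecules and receptors. No host mRNA was measured in these libraries, so hosts enter below through their annotation (GENCODE M21, mm10), not through their expression.

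The mature strands show the seeds of these genes and which of them are also found in other genes. Mature sequences for 6 of the 9 genes were matched in RefSeq's table (GRCm38.p6), and are given with the seed in capitals, both arms of each hairpin. They are followed by the mature strands of other genes that carry the same seed.
miR-708-5p: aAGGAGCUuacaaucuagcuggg
miR-708-3p: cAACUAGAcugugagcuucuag
miR-488-5p: cCCAGAUAauagcacucucaa
miR-488-3p: uUGAAAGGcuguuucuugguc
miR-873a-5p: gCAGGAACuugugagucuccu
miR-873a-3p: gAGACUGAcaaguucccggga
miR-384-5p: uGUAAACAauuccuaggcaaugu
miR-384-3p: aUUCCUAGaaauuguucacaau
miR-551b-5p: gAAAUCAAgcuugggugagaccu
miR-551b-3p: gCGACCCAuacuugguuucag
miR-592-5p: aUUGUGUCaauaugcgaugaugu
miR-592-3p: uCAUCACGuggugacgcaacau
miR-28a-5p (seed of miR-708-5p): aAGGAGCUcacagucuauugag
miR-30a-5p (seed of miR-384-5p): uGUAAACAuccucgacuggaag
For Mir874 the table holds the hairpin alone, on chromosome 13 (58023125 to 58023200, minus strand).
Mir874 hairpin: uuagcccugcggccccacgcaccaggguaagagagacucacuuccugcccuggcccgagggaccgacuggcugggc
Mir598 and Mir383 have no entry in it. No mature strand of the 6 genes was identical to that of another gene in the table. Of their 12 arms, 3 shared a seed with another of the 1072 genes in the table, namely miR-708-5p, miR-384-5p and miR-873a-5p, and no 2 of the 12 arms listed for these genes shared a seed among themselves. The table does not hold every counted gene, so a seed found in no other entry is not shown to be alone.

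Sense-strand counts in miRNA genes numbered 6985784 in replicate 2 and 4429633 in replicate 1, and a count of 0 allows up to 0.429 CPM (counts per 1000000 sense counts in miRNA genes) in replicate 2 and 0.677 CPM in replicate 1. Reads that fit several loci are left out of the gene counts, and made up 47.9% of all reads in replicate 2 and 43.9% in replicate 1. The 6 neuron markers summed to 7.56% in replicate 2 and 5.65% in replicate 1, most of it from Mir132 alone (61586 CPM and 42570 CPM). Mir128-1 was also higher in replicate 2, at 7805 CPM, against 6979 CPM in replicate 1. By CPM, Mir212 (1462 in replicate 2 and 2020 in replicate 1) and Mir138-1 (4644 and 4879) were lower in replicate 2. Of these markers, Mir9-1 was at 64.3 CPM in replicate 2, against 11.1 CPM in replicate 1, and Mir124a-1 was below detection at 1.57 CPM and 0.677 CPM. Mir9-1 and Mir124a-1 each share runs of 18 bases or more with 2 other genes, so these counts leave out reads that fit several copies. The liver gene Mir122 was at 31.3 CPM and 25.3 CPM. The 9 markers of epithelium and sensory organs summed to 0.388% of counts in replicate 2 and 2.94% in replicate 1, and all 9 of these were called higher in replicate 1. The 5 markers of choroid plexus and ependyma summed to 0.247% in replicate 2 and 0.117% in replicate 1, with 4 called higher in replicate 2. Of the red blood cell markers, Mir451a had 75 counts in replicate 2 and 8 in replicate 1, and Mir144 had 0 and 3. Of the 4 muscle markers, Mir206 was detected, at 29.5 CPM in replicate 2, against 19.9 CPM in replicate 1, Mir499 had 28 and 5 counts, and Mir208a had none. Mir133a-1 also had none, but it shares runs of 18 bases or more with 2 other genes, and reads that fit several loci are not counted.

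The 9 genes together held 2.16% of counts in replicate 2 and 2.46% in replicate 1, a mean of 2.31% ± 0.215 (SD, n = 2). All 9 reached 2 CPM in both libraries, the minimum used for detection, which 438 of the 2202 genes (19.9%) reached. Their levels were far apart, with a mean for Mir598 that was 1646 times that of Mir592. Of the 9 genes, 6 had a mean of 100 CPM or more, as did 8.99% of all counted genes. Mir598, Mir383 and Mir874 had 1000 CPM or more, as did 4.41% of all counted genes, and together made up 95.4% of the counts of the 9. The median of the 9 genes was 282 CPM, against 57.8 CPM over all detected genes. The genes were chosen with earlier results of these data known, so these shares describe the list and do not test it.

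Mir598 was the most abundant. It was counted 69661 times in replicate 2 and 55490 times in replicate 1, which is 9972 CPM (95% Wilson interval 9898 to 10046) and 12527 CPM (12424 to 12631). Its mean of 11249 ± 1807 CPM (SD, n = 2) ranked 19th of 2202 genes and was 48.7% of the summed mean of the 9 genes. Replicate 1 was the higher library, and the intervals did not overlap. The gene lies on chromosome 14 (63727189 to 63727267, plus strand) in intron 1 of Xkr6, a gene of the XK-related membrane protein family. The intron is 191 kb long, and the hairpin starts 121 kb from the host's 5′ end. Of the 5 annotated Xkr6 transcripts, 1 spans the hairpin.

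Mir383, whose human counterpart has been studied as a repressor of the antioxidant enzyme gene PRDX3 in medulloblastoma cells, came next. It had 48611 counts in replicate 2 and 28575 in replicate 1, or 6959 CPM and 6451 CPM, with a mean of 6705 ± 359 CPM (SD, n = 2). Replicate 2 was the higher library. It lies on chromosome 8 (38252133 to 38252202, minus strand) in intron 1 of Sgcz, the zeta subunit of the sarcoglycan membrane complex. That intron spans 708 kb, the longest of those that hold a gene of this list, and the hairpin lies 409 kb from the host's 5′ end.

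Mir874, studied mainly as a growth-restraining miRNA in human tumour cells, had 24533 counts in replicate 2 and 20523 in replicate 1. These are 3512 CPM and 4633 CPM, with a mean of 4072 ± 793 CPM (SD, n = 2), and replicate 1 was the higher. It lies in intron 8 of Klhl3, the substrate adaptor of a ubiquitin ligase that acts on WNK kinases and is best known from the kidney. Klhl3 is the shortest of the hosts at 113 kb, and Mir874 sits deepest in its host, 79.7% of the way from the 5′ end. Its hairpin is also the richest in G and C of the 9, at 68.4%.

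A gap of 8.37 times separated Mir874 from the next gene, Mir708. Mir708 was counted 3224 times in replicate 2 and 2267 times in replicate 1, at 462 CPM and 512 CPM, with a mean of 487 ± 35.5 CPM (SD, n = 2). It lies on chromosome 7 (96249424 to 96249532, plus strand) in intron 1 of Tenm4, a teneurin, one of the large adhesion proteins through which neurons recognise their partners. In mouse cells the gene and its host are known to be induced together under stress of the endoplasmic reticulum. Mir28a, which carries the same seed in an unrelated host, Lpp, had 124 CPM in replicate 2, against 219 CPM in replicate 1. The mean of Mir28a was 0.353 times that of Mir708, and the ranges of these genes did not overlap. Outside the seed, 9 of 15 aligned bases of miR-28a-5p were the same as in miR-708-5p.

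Mir708 was also the exception to the idea of a single locus. Its hairpin shared a run of 23 bases with a predicted miRNA gene, Gm23134, on chromosome 2 (157562361 to 157562447, minus strand), whereas the longest run that any of the other 8 hairpins shared with a counted gene was 13 bases. For comparison, 20.8% of detected genes shared a run of 18 bases or more with another counted gene. Gm23134 had 1 count in each library, so nearly all reads that could be told apart fell at Mir708. Reads that fit both places are in neither count, and their number is not known.

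The annotation shows what the shared run is. Gm23134 lies opposite the 3′ untranslated region (UTR) of Nnat, the imprinted gene of neuronatin, a small membrane protein of the endoplasmic reticulum in developing neurons. The Nnat mRNA therefore holds a stretch complementary to miR-708-5p, at chromosome 2 (157562405 to 157562427, plus strand). It pairs with 22 of the 23 bases of the miRNA in 1 unbroken run, bases 2 to 23. In human breast cancer cells miR-708 is known as a repressor of NNAT. A search of all protein-coding transcripts of GENCODE M21 for 18 or more bases in a row complementary to any of the 12 arms found such runs for miR-708-5p alone, in 3 genes. The others were Kpna4, an importin alpha that carries proteins into the nucleus, with 21 of 23 bases paired (a run of 19), and St6galnac5, a brain sialyltransferase, with a run of 18. All 3 sites lie in 3′ UTRs, and they are the longest complements of the 12 arms searched. Mir598, Mir383 and Mir874 had no mature strand to search. The sites are shown 5′ to 3′ as DNA of the mRNA strand, paired bases in capitals.
Nnat site: CCCAGCTAGATTGTAAGCTCCTg
Kpna4 site: tCCtGCTAGATTGTAAGCTCCTT
St6galnac5 site: ttagaCTAGATTGTAAGCTCCTT
Such a run in a protein-coding transcript was found for 1 of the 12 arms, and for 5.96% (100 of 1679) of all mature strands in the table. These matches describe sequence, and no mRNA level was measured here.

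Mir488, in human genetics a candidate in panic disorder, had the largest ratio of the 9 between the libraries. With the GC correction described below, that of Mir551b was larger. Mir488 had 2468 counts in replicate 2 and 931 in replicate 1, at 353 CPM and 210 CPM, with a mean of 282 ± 101 CPM (SD, n = 2). Replicate 2 was well above replicate 1. The gene lies on chromosome 1 (158505625 to 158505733, plus strand) in intron 5 of Astn1, astrotactin, through which migrating neurons hold to glial fibres. It lies 0.155 kb behind the preceding exon in an intron of 4.38 kb, the shortest of those occupied, while the noncoding gene Gm37679 is annotated on the opposite strand. No opposite-strand count fell on the hairpin in either library. Among the 9 genes only Mir708 had any, 21 in replicate 2 and 16 in replicate 1, while 1.21% of comparable detected genes had more than 3 in both.

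Mir873a was counted 1471 times in replicate 2 and 813 times in replicate 1, at 211 CPM and 184 CPM, with a mean of 197 ± 19.1 CPM (SD, n = 2). Its value in replicate 2 lay just within the range of Mir488, and these were the only neighbours in the order of levels whose ranges overlapped. It lies on chromosome 4 (36668510 to 36668586, minus strand) in intron 2 of Lingo2, a leucine-rich repeat membrane protein of neurons, whose 1245 kb make it the longest host here. A gene on the opposite strand with exactly the same start and end, Mir873b, is annotated too. Mir873b had 0 sense counts, and its opposite-strand counts (1471 in replicate 2 and 813 in replicate 1) were those of Mir873a. All stranded reads at the locus thus came from the Lingo2 strand. In the unstranded column, where such reads are ambiguous, Mir873a had 0 counts. Mir876, also within Lingo2 and 23.1 kb away, had none either.

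Mir384 is the gene of the list with no protein-coding host on the same strand. On the X chromosome (105344282 to 105344369, minus strand), it is 155 kb from the nearest protein-coding gene, Cypt2. Its 5p arm is known for a part in lasting synaptic strengthening in the rodent hippocampus. It had 537 counts in replicate 2 and 304 in replicate 1, at 76.9 CPM and 68.6 CPM, with a mean of 72.7 ± 5.83 CPM (SD, n = 2).

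The seed of miR-384-5p is that of the miR-30 family, and the 4 genes matched with it in the table had higher means. Mir30a had 5151 CPM in replicate 2, against 3162 CPM in replicate 1, with a mean 57.1 times that of Mir384. Mir30e was at 1122 CPM and 2027 CPM, or 21.6 times by the means. Mir30c-2 and Mir30c-1, which make the same mature strand, were at 329 ± 4.66 CPM and 193 ± 8.72 CPM (SD, n = 2), 4.53 and 2.66 times the mean of Mir384. Reads of that strand that fit both loci are not counted, so these levels leave out an unknown number of them. Mir30d and Mir30b, known members of the family, have no entry in the table and were added after values were seen. Mir30d was the most abundant of these genes, at 19641 CPM in replicate 2, against 11979 CPM in replicate 1, with a mean 217 times that of Mir384. Mir30b had 98.2 CPM in replicate 2 and 70.4 CPM in replicate 1, a range that overlapped that of Mir384. Outside the seed, 5 of 15 aligned bases of miR-30a-5p were the same as in miR-384-5p. Mir6370, which has the seed of miR-873a-5p, had no count in either library.

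The remaining genes were near the limit of detection. Mir551b had 111 counts in replicate 2 and 44 in replicate 1, at 15.9 CPM (13.2 to 19.1) and 9.93 CPM (7.40 to 13.3), with a mean of 12.9 ± 4.21 CPM (SD, n = 2). It lies on chromosome 3 (29416823 to 29416920, plus strand) in intron 5 of Egfem1, named for its EGF-like and EMI domains. Mir592, which in mouse neurons is known to repress the neurotrophin receptor gene Ngfr, had 45 counts in replicate 2 and 32 in replicate 1. These are 6.44 CPM (4.81 to 8.62) and 7.22 CPM (5.12 to 10.2), with a mean of 6.83 ± 0.553 CPM (SD, n = 2). It lies on chromosome 6 (27936655 to 27936750, minus strand) in intron 3 of Grm8, a metabotropic glutamate receptor of the presynaptic membrane. An exon of 1 of the 5 Grm8 transcripts that span the hairpin covers it, so it can be read as exonic in that form. Mir551b was above Mir592 in both libraries, by 2.47 times in replicate 2 and 1.38 times in replicate 1, but their intervals overlapped in replicate 1.

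**Figure D1:**
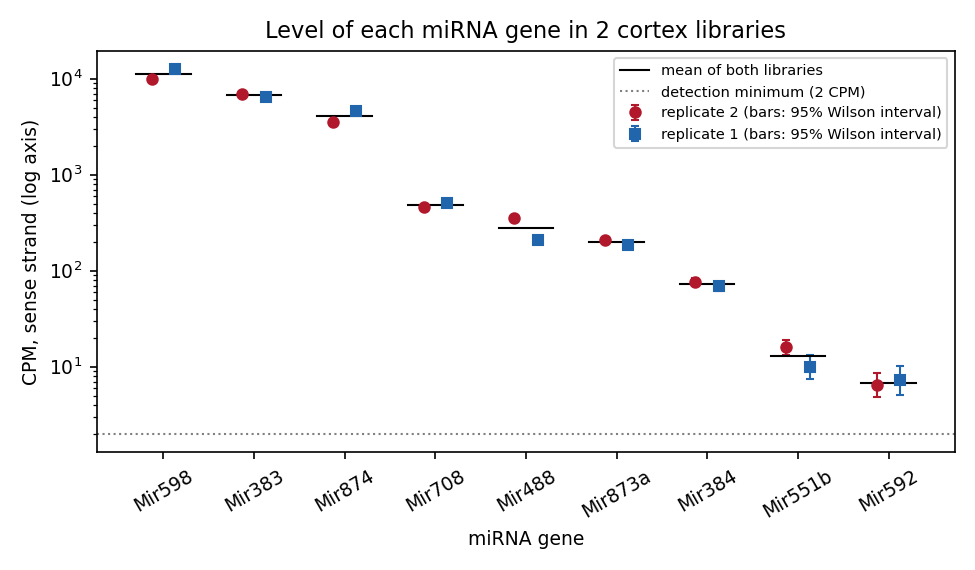
CPM on the sense strand (log axis) of the 9 genes in replicate 2 (circles) and replicate 1 (squares), with 95% Wilson intervals of counting error and the mean of both libraries as a line. The genes fall into an upper set from 4072 to 11249 CPM (means) and a lower set from 6.83 to 487 CPM, and Mir488 and Mir873a are the only neighbours whose ranges overlap.

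The hosts had much in common. Host length was not part of the choice of genes, but enrichment in neurons was. The choice is therefore not shown to be independent of host length. Of the 9 genes, 8 lie within a protein-coding gene on the same strand, as do 56.8% of the 438 detected genes. For 7 of the 8 no annotated exon of the host strand touches the hairpin, Mir592 being the other. For most hosts some annotated transcripts do not span the hairpin. Those that do are 1 of 5 for Xkr6, 2 of 10 for Lingo2, 5 of 11 for Astn1 and 4 of 7 for Egfem1. They are 7 of 12 for Tenm4, 5 of 7 for Grm8 and 2 of 2 for both Klhl3 and Sgcz. Intron numbers and lengths are those of the longest spanning transcript, a coding one where available. Host lengths and 5′ distances are those of the whole gene. All 8 hosts are longer than 100 kb and 5 are longer than 500 kb, against 30.9% and 6.02% of the 249 detected genes with such a host. The median host length was 675 kb, against 35.3 kb over those 249 genes. Long hosts were also found for other neuronal genes, namely Mir128-1 (134 kb), Mir128-2 (171 kb), Mir218-1 (325 kb), Mir218-2 (587 kb) and Mir153 (791 kb). The host of Mir135b was 18.1 kb long. Mir129-1, Mir129-2, Mir138-1, Mir138-2, Mir132, Mir212, Mir137 and Mir7b had no such host. These are counts of annotation and were not tested.

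No gene of the list shared its host with another miRNA gene that had a sense count. Mir6394 in Tenm4, Mir876 in Lingo2 and Mir21b in Egfem1 had 0 counts in both libraries, and no other miRNA gene lies within 10 kb of any of the 9 apart from Mir873b.

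Levels were set beside host lengths. Klhl3 and Xkr6, the shortest hosts, held Mir874 and Mir598, both abundant, but Sgcz at 1139 kb held the second most abundant, Mir383. Lingo2, of nearly the same length as Sgcz, held Mir873a with a mean 0.0294 times as high. Grm8 at 860 kb and Egfem1 at 609 kb held the genes lowest in level. Across the 8 genes with a host, log10 host length and log10 mean CPM had a Pearson's r of -0.44 and a Spearman's rho of -0.38. Across the 249 detected genes with a host they were 0.23 and 0.27. The points share libraries and are genes, not samples, so no p is given. Distance from the host's 5′ end, from 78.2 kb for Mir708 to 409 kb for Mir383, gave a rho of -0.29 with level over the same 8 genes.

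**Figure D2:**
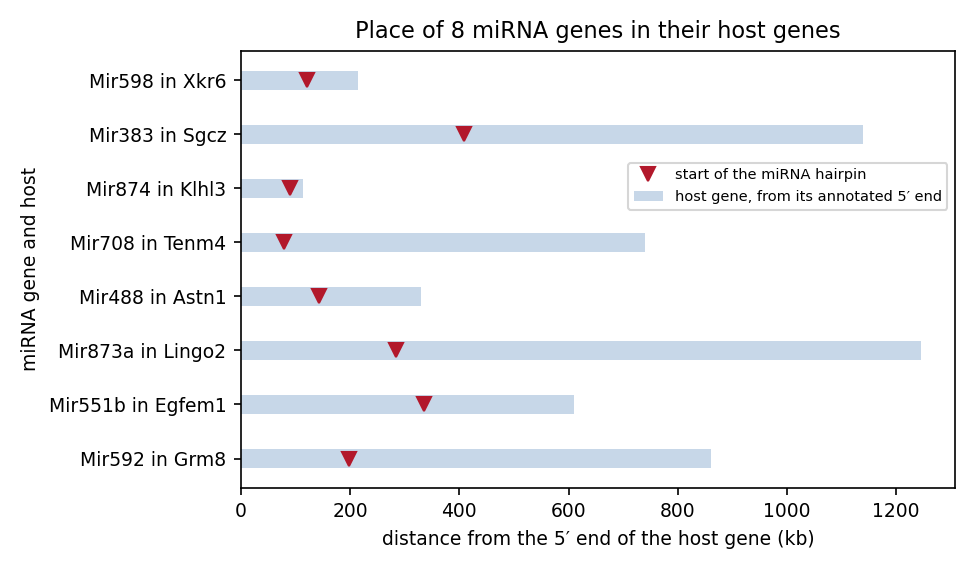
The 8 host genes drawn to scale from their annotated 5′ end (kb), ordered from the most to the least abundant miRNA gene, with a triangle where the hairpin starts. Hosts run from 113 kb (Klhl3) to 1245 kb (Lingo2), and the hairpins start 78.2 to 409 kb into them.

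**Figure D3:**
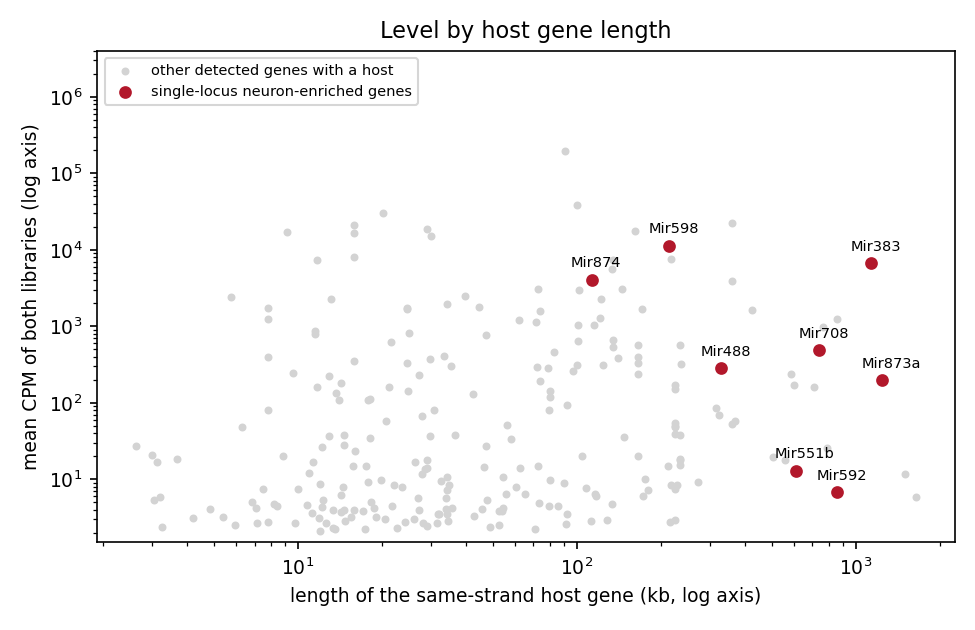
Mean CPM of both libraries against the length of the same-strand protein-coding host, both on log axes, for 249 detected genes. The hosts of the 8 genes of the list run from 113 kb (Klhl3) to 1245 kb (Lingo2). Among these genes level spans from 6.83 CPM (Mir592) to 11249 CPM (Mir598).

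Other neuronal miRNA genes were set beside these levels. The 8 copies of paired loci (Mir128, Mir129, Mir138 and Mir218, each with 2 loci) held 2.20% of counts in replicate 2 and 2.25% in replicate 1, beside 2.16% and 2.46% for the 9 single-locus genes. All 8 shared runs of 18 bases or more, so that part of their reads is not counted, while 8 of the 9 single-locus genes did not. The 6 copies of Mir124a and Mir9, each with 3 loci, held 0.00928% and 0.00201%, and 4 of them were below 2 CPM in at least 1 library. All 6 share such runs as well, so these sums leave out the reads that fit several copies and are no measure of how abundant miR-124 and miR-9 are. The 6 other neuronal genes with 1 locus held 6.62% and 4.70%, nearly all of it Mir132. These sums were not tested against each other, since genes are not replicates.

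The libraries were compared for each gene by an exact two-sided binomial test of the counts, given library sizes scaled by TMM (trimmed mean of M-values), with Benjamini-Hochberg adjustment over the 438 detected genes. A gene was called where the libraries differed by 2 times or more and the adjusted p lay under 0.05. The test sets 1 library against the other, beyond counting error, and says nothing of conditions. None of the 9 genes was called by this exact binomial test, while 79 of 438 genes (18.0%) were, 9.36% higher in replicate 2 and 8.68% higher in replicate 1. By the adjusted p alone 7 of the 9 differed beyond counting error, 5 higher and 2 lower in replicate 2, as did 63.9% of all tested genes (32.0% in each direction). Of the 9, 5 had a log2 ratio above 0, as had 47.7% of all tested genes. The same 7 genes had an unadjusted p under 0.05. The median log2 ratio of the 9 genes (replicate 2 over replicate 1) was 0.23, against -0.03 over all tested genes. The median of its size without sign was 0.27, against 0.50. These sizes were not matched for level, and the 9 genes had the higher median level (282 CPM, against 57.8 CPM).

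Mir488 and Mir551b had the largest ratios of the 9. The ratio of Mir488 was 1.83 times (log2 0.87, exact counting interval 0.77 to 0.98, adjusted p = 1.00e-59 by the exact binomial test), with 101 tested genes farther from 1. That of Mir551b was 1.73 times (log2 0.79, interval 0.29 to 1.34, adjusted p = 0.00252), on counts of 111 and 44. At a ratio limit of 1.5 these would be the 2 genes called, among 39.0% of all tested genes.

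Mir873a (log2 0.32), Mir384 (0.29) and Mir383 (0.23) were higher in replicate 2 by smaller ratios, and Mir598 (-0.20) and Mir874 (-0.27) lower. Mir708 (-0.02, interval -0.10 to 0.05, adjusted p = 0.643 by the exact binomial test) and Mir592 (-0.05, interval -0.73 to 0.66, adjusted p = 0.938) did not differ beyond counting error, the interval of Mir592 being wide. Which genes passed depended on the scaling. Mir708 passed with library totals (log2 -0.15, adjusted p = 0.00033 by the exact binomial test) and with a correction for GC content (-0.11, adjusted p = 0.0079). Mir384 did not pass with library totals (0.16, adjusted p = 0.167 by the exact binomial test), nor Mir873a with the GC correction (0.10, adjusted p = 0.142). The 7 differences that passed stand beside the shift in epithelial and choroid plexus markers given above, and the part of those cells in them was not tested.

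**Figure D4:**
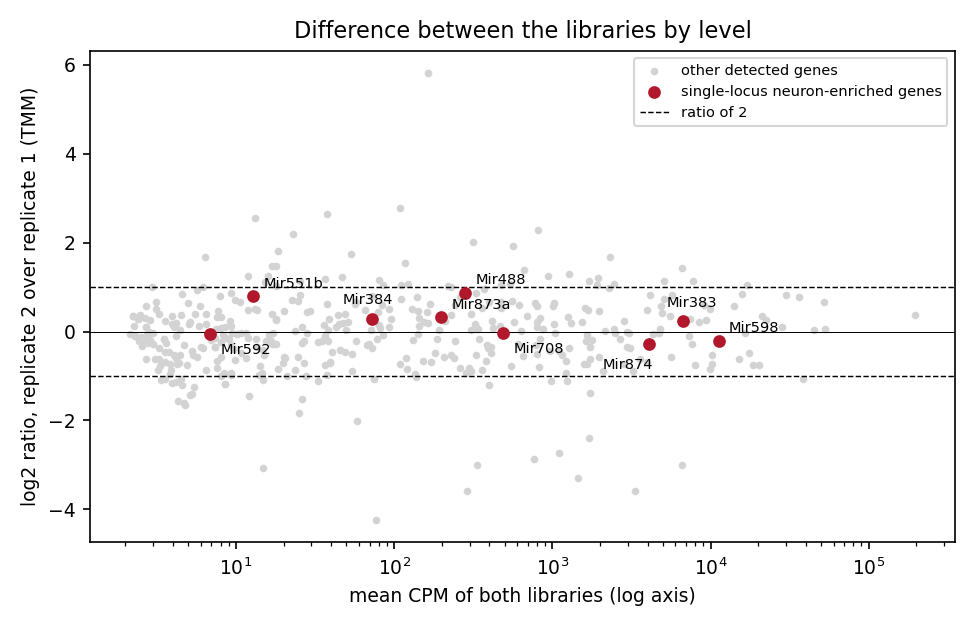
Log2 ratio of replicate 2 over replicate 1 (TMM scaling) against mean CPM (log axis) for the 438 detected genes, with the 9 genes of the list in red and dashed lines at a ratio of 2. All 9 lie between the dashed lines, from -0.27 (Mir874) to 0.87 (Mir488).

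Base composition moved with the difference between the libraries. Over the 438 detected genes the log2 ratio fell with the GC content of the precursor (Pearson's r = -0.36, Spearman's rho = -0.45), and over the 9 genes r was -0.46 and rho -0.57. These are correlations across genes of the same libraries, given as a description. Among the 9, Mir384 was the poorest with 33.0% GC and Mir874 the richest with 68.4%. Other detected genes lay beyond both, such as Mir376c (29.1%) and Gm26117 (91.6%). With the linear trend removed, Mir384 had a log2 ratio of -0.41 in place of 0.29, and Mir874 one of 0.26 in place of -0.27. That of Mir488 was 0.50 in place of 0.87, while that of Mir551b stayed at 0.76. The labels cite a different adapter-trimming document for each library, so trimming and replicate cannot be told apart.

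**Figure D5:**
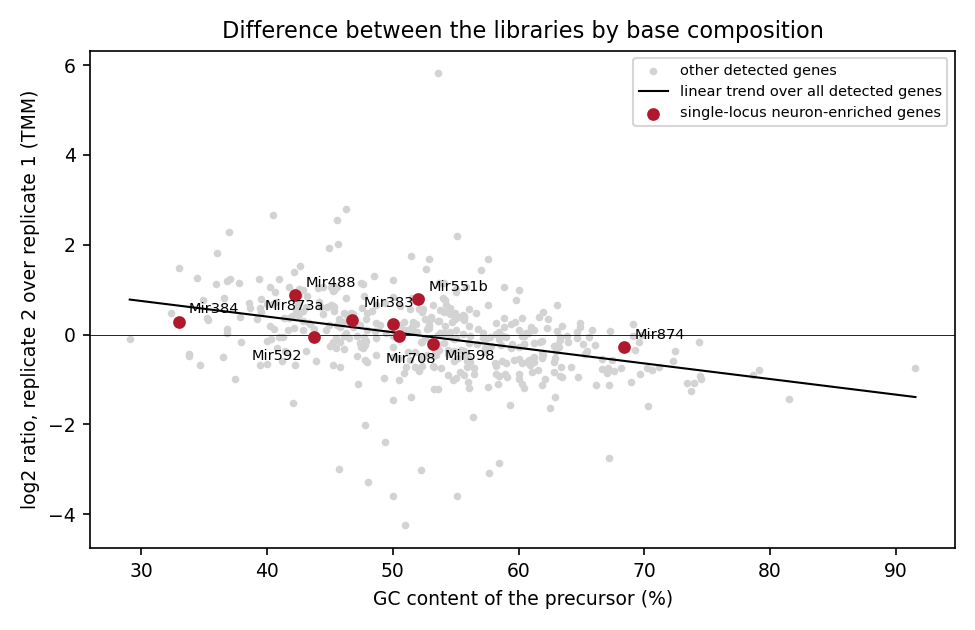
Log2 ratio of replicate 2 over replicate 1 (TMM scaling) against GC content of the precursor (%) for the 438 detected genes, with the linear trend over all of them. The 9 genes, in red, run from 33.0% GC (Mir384, 0.29) to 68.4% GC (Mir874, -0.27), and Mir488 and Mir551b lie farthest above the trend among them.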

How the data were processed

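Small RNA of mouse cerebral cortex was measured in 2 libraries of 1 group. The authors deposited raw read counts per annotated miRNA gene in 3 columns (either strand, sense, opposite), aligned to mm10 and counted against annotation M21, per the deposited readme text. No aligner or counter is named in the sources used here. The 4 summary lines that name no gene entered neither library sizes nor tests. They made up 61.8% of all reads in replicate 2 and 64.6% in replicate 1 for the sense column.

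Sense counts were divided by their library total to give CPM. Genes at 2 CPM or more in both libraries were tested by the exact binomial test (scipy 1.17.1), with TMM factors from edgeR 4.0.16, 0.5 counts added for ratios and exact 95% intervals. The test was checked on simulated data drawn with counting error alone. That check cannot show how the test behaves where libraries differ beyond counting error. Only counting error is covered by the intervals and by the floor of 3 counts, since no molecular identifiers are in the tables. Hosts, coordinates and GC content came from GENCODE M21, which held all 2202 counted genes, and mature sequences from RefSeq. Alternatives were the unstranded column, library totals, DESeq2 1.42.0 size factors, other filters and ratio limits, a thinned deeper library, a GC correction and each library alone. The genes, lists and tests were chosen with earlier results of these data known. All 9 genes are named, with other miRNA genes in the same hosts or within 10 kb, those sharing a seed at 100 CPM or more, and those of fixed comparison lists. The search for complementary runs, the genes it found, Gm23134, Mir30d, Mir30b and Mir6370 were chosen after values were seen.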

Additional observations from a re-analysis of the deposited data

Results flagged for a closer look

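Mir708 was the only one of the 9 genes with counts on the opposite strand, which no comparison above uses. It had 21 opposite-strand counts in replicate 2 and 16 in replicate 1, above the 3 counts that a count of 0 allows. These were 0.647% and 0.701% of the counts on both strands there. Over all genes with no miRNA gene annotated opposite them, such counts numbered 212 in replicate 2 and 148 in replicate 1, so Mir708 held 9.91% and 10.8% of them. Only Mir3083 (43 and 20) and Mir5620 (34 and 24) had more in replicate 2, and 1.21% of the 412 detected genes of this kind had more than 3 in both libraries. The source of these reads was not tested.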

How the results depend on the processing

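No paired analysis was possible because the series holds 1 group. All 9 genes were detected under every setting but 2, with 8 in the unstranded column, which loses Mir873a, and 7 at a minimum of 10 CPM. Leaving out a library gave 9 in either case, and a summed share of 2.16% to 2.46%. No gene of the 9 was called under library totals, DESeq2 size factors, no filter, the unstranded column, thinning or GC correction. At a ratio of 1.5, 2 were called, and with no ratio limit 7. Over all detected genes those limits called 171 and 280, and leaving the limit at 2 gave 60 (GC correction) to 90 (no filter). Library totals split the calls 29 to 55 between replicate 2 and replicate 1, against 41 to 38 with TMM, and moved the median log2 ratio to -0.16. The direction changed for Mir708 with DESeq2 size factors (0.0090) and no filter (0.075), for Mir592 with no filter (0.052) and thinning (0.18), and with GC correction for Mir874 (0.26) and Mir384 (-0.41). Depth limits Mir551b and Mir592 most.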
